A study of Mus musculus with 16 samples.

Results

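The 10 mitochondrially encoded respiratory genes described here are *mt-Co1*, *mt-Co2*, *mt-Co3*, *mt-Cytb*, *mt-Atp6*, *mt-Nd1*, *mt-Nd2*, *mt-Nd4*, *mt-Nd5* and *mt-Nd6*. They were taken by symbol with no threshold on their values, as a group picked when earlier results of these data were known, and all 10 were listed among the 22396 gene symbols measured. RNA was sequenced from EpCAM+ (epithelial) cells sorted from the distal colon of 16 mice, each as a library of its own. For DSS mice the study describes taking injured regions, set apart from unaffected tissue, so the region taken also differs between treatments. The groups were 4 Water Control, 5 Water Tnfr2ko, 3 DSS Control and 4 DSS Tnfr2ko mice. Control mice were Tnfr2-f/f, with both alleles of *Tnfrsf1b* (the gene of TNFR2) floxed, and Tnfr2ko mice were Vil1::Cre;Tnfr2-f/f, in which the villin promoter drives Cre in intestinal epithelium. The floxed allele was therefore common to all 16 mice. Dextran sulfate sodium (DSS), which injures the colonic epithelium, was given by the labels at 3% in water for 6 days, and the cells were taken on day 12 after the start of treatment. The study describes mice 8 weeks old and places the uninjured group at the start of the experiment, so the day of the water mice is not certain. It also gives a higher concentration of DSS than the labels do, and the dose is not certain either.

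Values are TPM, transcript abundances that are divided by transcript length and scaled to a fixed total, so levels can be compared between genes. TPM of the water mice and of the DSS mice came in separate tables that were scaled separately. For that reason genotypes were tested within a treatment, while DSS and water were set side by side as levels with no test. No cage held both treatments, and treatment cannot be told apart from cage or from the region taken. All 7 DSS mice were female. Among the water mice, the 4 males shared cage a and the 5 females cage b. DSS against water therefore also sets females against mice of both sexes. *Tnfrsf1b* had 11.1 to 15.5 TPM in Water Control, 9.23 to 14.8 in Water Tnfr2ko, 13.3 to 22.2 in DSS Control and 13.5 to 27.0 in DSS Tnfr2ko mice. The groups overlapped, and a total over the whole transcript does not check the deletion of a part of it, and Tnfr2ko is used here as the label.

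The mitochondrial genome is a small circle that is transcribed from both strands into long precursors. These are cut, mostly at the tRNAs that lie between the genes, into mRNAs that are polyadenylated within the mitochondrion. All of its proteins are subunits of oxidative phosphorylation: core subunits of complexes I, III and IV, which pump protons, and of complex V, the ATP synthase. The rest of each complex is encoded in the nucleus and imported. Differentiated colonic epithelial cells depend on oxidative phosphorylation, with butyrate as a main fuel.

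In GENCODE M21 on GRCm38, 9 of the 10 genes lie on the plus strand of chromosome M, each as 1 transcript without introns. *mt-Nd1* (positions 2751 to 3707), *mt-Nd2* (3914 to 4951), *mt-Co1* (5328 to 6872), *mt-Co2* (7013 to 7696), *mt-Atp6* (7927 to 8607), *mt-Co3* (8607 to 9390), *mt-Nd4* (10167 to 11544), *mt-Nd5* (11742 to 13565) and *mt-Cytb* (14145 to 15288) follow each other in that order. *mt-Nd6* lies on the minus strand at 13552 to 14070, between *mt-Nd5* and *mt-Cytb*, and its 3′ end overlaps that of *mt-Nd5*. Its mRNA is known to carry little or no poly(A) tail, and these libraries were made from poly(A)-enriched RNA. The libraries were stranded, but the sources do not state whether the strand was used in quantification. Reads of *mt-Nd6* and reads of the opposite strand, which continues downstream of *mt-Nd5*, therefore cannot be told apart here.

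The last 21 bases of each transcript are shown because they tell which mRNAs depend on polyadenylation for their stop codon; the stop codon, or the part of it that is encoded, is in capitals.
mt-Nd1: ggagtaccaccatacataTAG
mt-Nd2: gccccccaactaattaccTAG
mt-Co1: acctatgtaaaagtaaaaTAA
mt-Co2: tgatctgcttcaataattTAA
mt-Atp6: tatctacatgataatacaTAA
mt-Co3: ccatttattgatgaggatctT
mt-Nd4: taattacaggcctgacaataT
mt-Nd5: tactcaattaatctcgagTAA
mt-Cytb: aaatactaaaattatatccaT
mt-Nd6: atcgagattactcgagatTAA
In *mt-Co3*, *mt-Nd4* and *mt-Cytb* the encoded sequence ends 1 base into the stop codon, and the poly(A) tail supplies the rest. The other 7 encode a complete stop codon.

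The nuclear genome holds copies of parts of the mitochondrial genome, and reads from the gene and from the copy cannot be told apart where the sequences are identical. Each transcript was therefore cut into all of its windows of 31 bases, and windows found in no other GENCODE M21 transcript were counted as unique. All windows of *mt-Nd1* were unique, as were 93.4% of those of *mt-Cytb*, 92.6% of *mt-Nd6*, 86.5% of *mt-Nd2* and 83.2% of *mt-Nd5*. *mt-Nd4* (37.2%) and *mt-Co1* (36.1%) were mostly shared, and *mt-Atp6* (0.46%), *mt-Co3* (0.13%) and *mt-Co2* (0%) almost wholly so. The copies of the last 3 lie next to each other on the minus strand of chromosome 1, as the unprocessed pseudogenes *Gm10925* (24613974 to 24614651), *Gm28437* (24613189 to 24613971) and *Gm28661* (24614885 to 24615565). Over the 681 bases of *Gm28661* there was no mismatch to *mt-Co2*. The first 60 bases of both are printed in lower case throughout, since capitals would mark mismatches and there were none.
mt-Co2: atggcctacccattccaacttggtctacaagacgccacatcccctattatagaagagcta
Gm28661: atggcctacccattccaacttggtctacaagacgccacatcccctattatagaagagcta
None of these chromosome 1 copies is listed in the tables used here, which hold only transcripts annotated as principal isoforms. Their absence does not tell whether they were in the reference used for quantification, which is not known. Thus, *mt-Co2*, *mt-Co3* and *mt-Atp6* are reported as uncertain in level. The summed shares, and the ratio to nuclear-encoded subunits between treatments, were repeated on the 5 genes with over 80% unique windows. Genotype tests of that ratio and correlations across mice used the sum of all 10 genes only.

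Together the 10 genes made up a large part of the listed TPM, and a larger part after DSS than in water. Their summed TPM was 42.2%, 38.6% and 33.3% of all listed TPM in the DSS Control mice and 26.8%, 37.7%, 37.7% and 33.5% in the DSS Tnfr2ko mice. In the Water Control mice it was 15.6%, 22.5%, 32.1% and 17.7%, and in the Water Tnfr2ko mice 17.6%, 9.56%, 19.0%, 15.9% and 18.8%. Within each genotype every DSS mouse was above every water mouse. Across genotypes the highest water mouse, Water Control 3, was above the lowest DSS mouse, DSS Tnfr2ko 1. Water Control 3 was male, while no DSS mouse was. The medians of 37.7% over 7 DSS mice and 17.7% over 9 water mice differed by 1.09 on the log2 scale.

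The total that these shares refer to differed between the mice, since immunoglobulin genes, which plasma cells express and epithelial cells do not, took up 1.62% to 47.4% of the TPM in water and 0.026% to 2.26% after DSS. Water Control 3 had the least and Water Tnfr2ko 2 the most of the water mice. With immunoglobulin genes left out of the total, the 10 genes made up 42.3%, 38.6% and 33.3% in DSS Control and 26.8%, 37.8%, 38.6% and 33.6% in DSS Tnfr2ko mice. The Water Control mice then had 20.7%, 24.5%, 32.6% and 25.6% and the Water Tnfr2ko mice 21.5%, 18.2%, 23.8%, 24.7% and 23.8%. The order of the groups was unchanged by this, and the log2 difference of the medians (37.8% and 23.8%) was smaller, at 0.67. It was 0.67 also without Water Control 3, 0.69 over the 5 genes with over 80% unique windows and 0.69 over all 13 mitochondrially encoded protein genes. Among females alone, the water mice, all of cage b, had 23.8% to 25.6% and the DSS mice 26.8% to 42.3%. No test was made on this subset, which was picked after its values were seen.

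**Figure D1:**
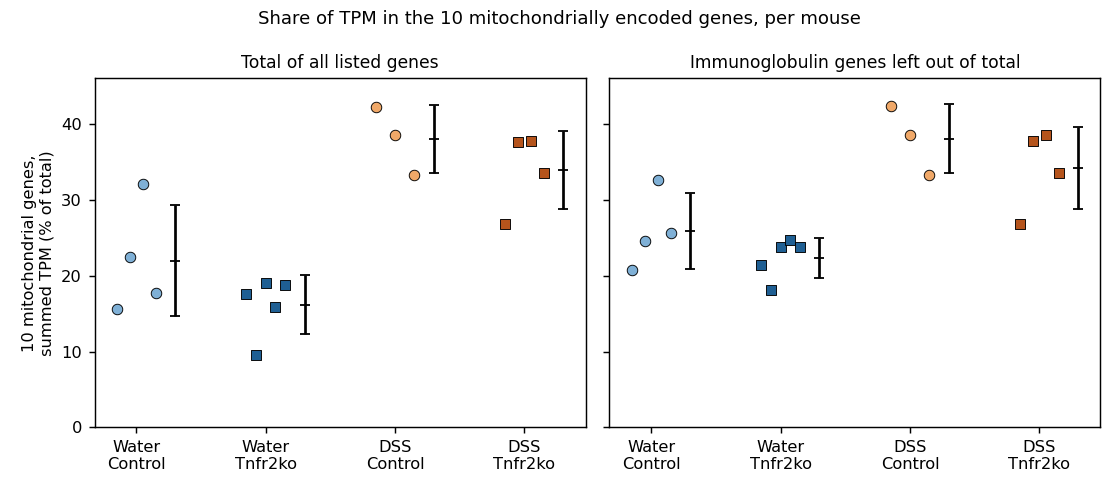
Summed TPM of the 10 mitochondrially encoded genes as a percentage of all listed TPM (left) and of listed TPM without immunoglobulin genes (right), for each of the 16 mice by group; points are mice, and the bar beside them is the mean ± SD (n = 4, 5, 3 and 4). Without immunoglobulin genes the water mice sit between 18.2% and 32.6% and the DSS mice between 26.8% and 42.3%.

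Other cells' RNA moved with treatment too. The 14 leukocyte markers summed to 0.198% to 0.363% of the TPM without immunoglobulin genes in water and to 0.00420% to 0.0109% after DSS. Fibroblast and smooth muscle markers summed to 0.0521% to 0.178% in water and 0.0208% to 0.0870% after DSS. The 11 epithelial markers, among them *Epcam*, *Cdh1* and *Krt8*, were high in all mice, at 1.38% to 1.76% in water and 1.03% to 1.60% after DSS. The 10 genes of the response to tissue dissociation, among them *Fos* and *Jun*, summed to 0.817% to 1.20% in water and 0.493% to 0.885% after DSS. The part of these differences in the mitochondrial share was not tested, and no measure of cell or RNA quality was at hand. In these bulk samples, fewer cells of a type and less RNA per cell cannot be told apart.

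The members kept nearly the same order of abundance in all mice. *mt-Co1*, the catalytic subunit of cytochrome c oxidase (complex IV), was the highest, with a median of 63821 TPM after DSS and 35405 in water, and ranked between 1 and 3 among all genes in every mouse. *mt-Co3*, another core subunit of complex IV, came next with 43686 and 22669 TPM and was below *mt-Co1* in all 16 mice. *mt-Atp6*, the proton channel subunit of ATP synthase, *mt-Co2*, which takes electrons from cytochrome c, and *mt-Cytb*, the haem-carrying core of complex III, followed close together. Their medians after DSS were 24267, 23695 and 23824 TPM and in water 11070, 11666 and 11720 TPM. Their order changed from mouse to mouse, *mt-Atp6* being above *mt-Co2* in 4 of 7 DSS and 3 of 9 water mice, so these 3 are not separated.

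The complex I genes were lower. *mt-Nd1*, which lies at the ubiquinone site, had medians of 15417 TPM after DSS and 7368 in water and was below *mt-Cytb* in all mice. Of the genes for the proton-pumping membrane arm, *mt-Nd4* had 14125 and 5387 TPM, *mt-Nd2* 6498 and 2675, and *mt-Nd5* 4573 and 1564. *mt-Nd6* had 5752 and 1445 TPM and was close to *mt-Nd5* in each mouse, at 0.930 to 1.43 times its TPM after DSS and 0.907 to 1.09 times in water. Between 7 and 8 of the members were among the 10 highest genes of each DSS mouse, against 2 to 7 in the water mice, where Water Tnfr2ko 2 had the fewest. Immunoglobulin genes were kept in this ranking, and they held 47.4% of the TPM of Water Tnfr2ko 2. A ranking without them was not made.

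**Figure D2:**
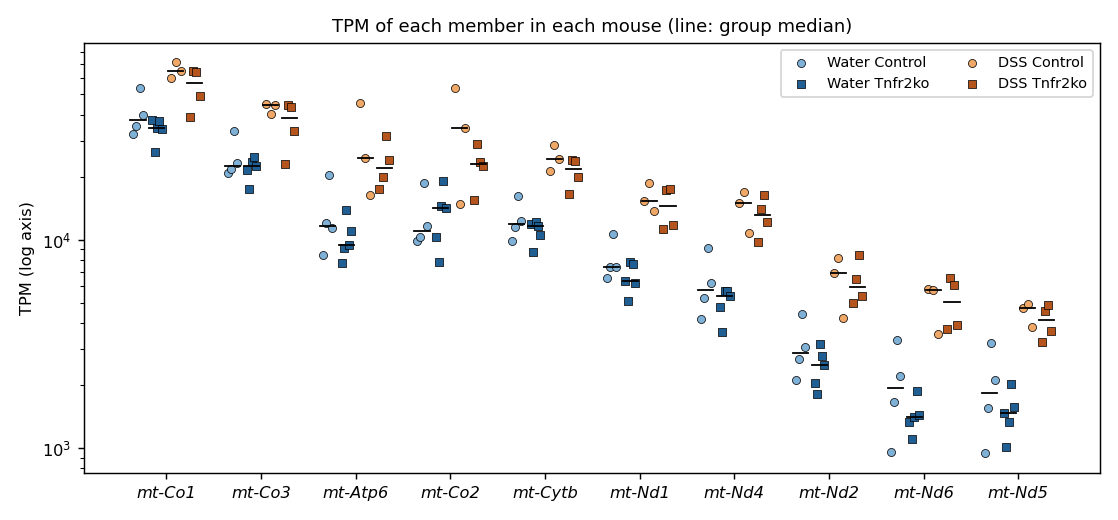
TPM (log axis) of each member in each mouse, in order of the median over all 16 mice; colour and shape give the group, and the short line is the group median. By group median, *mt-Co1* is highest in all 4 groups, and *mt-Nd5* and *mt-Nd6* are lowest.

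Within complex IV, *mt-Co2* had the widest spread between mice. It had 53581, 14803 and 34582 TPM in DSS Control, 15554, 28739, 23695 and 22621 in DSS Tnfr2ko, 9872, 10338, 18787 and 11666 in Water Control, and 10340, 7849, 14556, 19166 and 14256 in Water Tnfr2ko mice. DSS and water mice overlapped, and the highest and the lowest DSS mouse were both controls. *mt-Co1* had 60243, 71344 and 64534 TPM in DSS Control and 38837, 64617, 63821 and 49308 in DSS Tnfr2ko mice. In water it had 32320, 35405, 53691 and 39626 TPM in Control and 37634, 26327, 34384, 37220 and 33920 in Tnfr2ko mice. Water Control 3 and Water Control 4 were above the lowest DSS mouse, DSS Tnfr2ko 1, and every other water mouse was below all DSS mice. The ratio of *mt-Co2* to *mt-Co1* ran from 0.207 to 0.889 after DSS and from 0.275 to 0.515 in water, while that of *mt-Co3* to *mt-Co1* stayed between 0.562 and 0.748 in all mice. Within groups, the coefficient of variation of the share of the summed member TPM had its highest median for *mt-Atp6* (19.4%), *mt-Nd6* (16.5%) and *mt-Co2* (15.6%), against 5.79% for *mt-Co1* and 6.68% for *mt-Co3*. Of the 3 members with almost no unique windows, *mt-Atp6* and *mt-Co2* were thus among the most variable and *mt-Co3* among the least; whether shared sequence has a part in the spread was not tested.

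All 10 members had a higher median after DSS than in water on each of the 4 scales plotted here, but by unequal amounts. As a share of TPM without immunoglobulin genes, the log2 difference of the medians was 1.52 for *mt-Nd6*, 1.09 for *mt-Nd5*, 1.01 for *mt-Nd4* and 0.94 for *mt-Nd2*. It was 0.76 for *mt-Atp6*, 0.70 for *mt-Co2*, 0.63 for *mt-Nd1*, 0.62 for *mt-Cytb*, 0.45 for *mt-Co3* and 0.38 for *mt-Co1*. Thus, 4 of the 5 complex I genes were at the top, and *mt-Co1* and *mt-Co3* at the bottom. The median over all genes was 0.01 on this scale, 0.35 in TPM as deposited and -0.00 after median-of-ratios rescaling of the 16 mice. After that rescaling *mt-Nd6* was at 1.68 and *mt-Co1* at 0.44.

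*mt-Nd6* had 0.900%, 0.947% and 0.533% of the TPM without immunoglobulin genes in DSS Control and 0.693%, 1.07%, 0.980% and 0.705% in DSS Tnfr2ko mice. In Water Control it had 0.206%, 0.374%, 0.622% and 0.479% and in Water Tnfr2ko 0.271%, 0.243%, 0.284%, 0.377% and 0.314%. Of the DSS mice, only Control 3 was below a water mouse, Water Control 3. *mt-Nd4* had 2.32%, 2.80% and 1.62% in DSS Control, 1.81%, 2.31%, 2.64% and 2.19% in DSS Tnfr2ko, 0.898%, 1.17%, 1.73% and 1.34% in Water Control, and 0.975%, 0.801%, 1.15%, 1.14% and 1.17% in Water Tnfr2ko mice. The same pair of mice overlapped. For *mt-Nd1* the DSS mice (2.09% to 3.10%) were all above the water mice (1.12% to 2.01%), as they were for *mt-Cytb* (3.07% to 4.72% after DSS, 1.93% to 3.06% in water).

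These 2 were the only members whose DSS and water mice did not overlap on this scale, where 3.46% of the 10159 genes that averaged 1 TPM or more in both tables were higher without overlap. After median-of-ratios rescaling none of the members was without overlap, against 4.59% of all genes, and none was when divided by the nuclear subunit sum (2.95% of all genes). In TPM as deposited 5 were, against 19.9%, and as a share of all listed TPM 2 were, against 12.1%. Within Control mice 3 members (*mt-Co3*, *mt-Cytb* and *mt-Nd1*) were higher without overlap in the share without immunoglobulin genes (7.51% of all genes), and within Tnfr2ko mice 7 were (20.1% of all genes), all but *mt-Co1*, *mt-Co2* and *mt-Co3*. After rescaling these counts were 1 (10.8% of all genes) and 6 (17.9%). Whether the genotypes differ in this was not tested, and Water Control 3, which overlapped with DSS mice, is in the Control group.

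**Figure D3:**
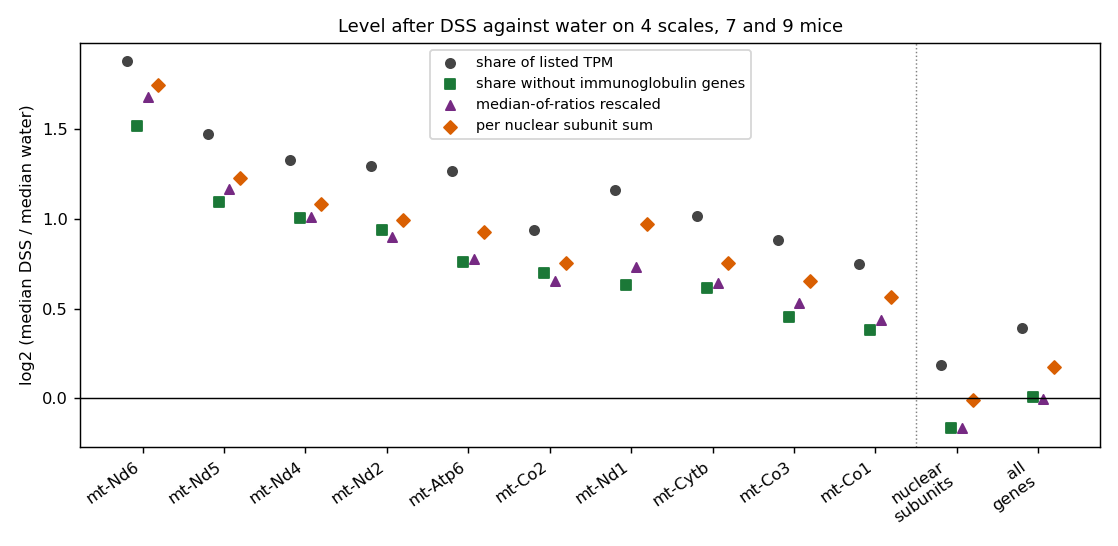
Log2 of the median over 7 DSS mice divided by the median over 9 water mice, for each member, for the median of the nuclear-encoded subunits and for the median of all genes, on 4 scales given by colour and shape. On each scale *mt-Nd6* is highest and *mt-Co1* lowest of the members, and all members lie above the nuclear subunits.

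The makeup of the mitochondrial mRNA differed accordingly. The 5 complex I genes made up a median of 21.2% of the summed member TPM after DSS (16.4% to 23.4%) and 16.3% in water (15.2% to 17.7%), and 5 of 7 DSS mice were above all water mice. The 3 complex IV genes made up 56.4% after DSS (53.6% to 65.0%) and 62.9% in water (61.1% to 66.4%), with 6 of 7 DSS mice below all water mice. Shared windows in complex IV and the unknown strand of *mt-Nd6* reads in complex I limit these sums, and their part was not tested. *mt-Nd6* alone made up 2.13%, 2.46% and 1.60% in DSS Control and 2.58%, 2.83%, 2.54% and 2.10% in DSS Tnfr2ko mice, against 0.99% to 1.91% in Water Control and 1.19% to 1.53% in Water Tnfr2ko mice. Within Tnfr2ko mice, *mt-Nd2*, *mt-Nd4*, *mt-Nd5* and *mt-Nd6* had larger shares after DSS without overlap (1.95% of all genes did when divided by the members' sum), and *mt-Co1* and *mt-Co3* had smaller ones (22.7% of all genes). Within Control mice *mt-Co1* alone was without overlap, and its share was smaller after DSS (23.2% of all genes, against 0.561% that were larger). Over all mice none of the members was without overlap (0.197% of all genes were larger and 8.97% smaller). Dividing by the members' sum lowers other genes after DSS, and the median log2 difference over all genes was -0.64 on this scale. The percentages of all genes in this paragraph are therefore no baseline for the members.

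The nuclear-encoded subunits of the same complexes did not share the higher level. The 71 nuclear subunits of complexes I, III, IV and V summed to 2.24% to 2.90% of the TPM without immunoglobulin genes after DSS and to 2.36% to 3.13% in water. The median of their log2 differences was -0.17 (over the 70 with a median above 0 in both treatments), below the 0.01 of all genes. None of them was higher without overlap, where 3.46% of all genes were, and none was lower without overlap. The share of all genes that were lower without overlap is not given here. By complex, the medians were -0.20 for the 36 subunits of complex I, -0.23 for the 9 of complex III, and -0.00 and -0.02 for the 11 and 15 of complexes IV and V. Of the most abundant, *Ndufa1* of complex I was at -0.70, *Uqcrb* of complex III at 0.36, *Cox6a1* of complex IV at -0.54 and *Atp5b*, the catalytic subunit of ATP synthase, at -0.02. The 4 subunits of complex II, which has no mitochondrially encoded part, had a median of -0.16.

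The ratio of summed member TPM to summed nuclear subunit TPM is taken within a library. It does not depend on scaling or on whether immunoglobulin genes are in the total. Plasma cells and other cells in a sample can still add to both sums, and their part was not tested. The ratio was 18.8, 17.2 and 11.9 in DSS Control, 9.25, 15.5, 17.1 and 13.4 in DSS Tnfr2ko, 6.94, 9.75, 13.8 and 10.5 in Water Control, and 6.98, 5.82, 8.12, 9.67 and 9.05 in Water Tnfr2ko mice. The medians were 15.5 and 9.05, with overlap between the treatments: Water Control 3 was above DSS Control 3, DSS Tnfr2ko 1 and DSS Tnfr2ko 4, and Water Control 2, Water Control 4 and Water Tnfr2ko 4 were above DSS Tnfr2ko 1. The other 5 of 9 water mice were below all DSS mice. Complex I had the largest difference between treatments, with a ratio of 9.47 to 21.9 after DSS and 4.26 to 12.5 in water, and the DSS median was 2.62 times the water median. For complex V this factor was 1.86, for complex III 1.66 and for complex IV 1.45. Of the members summed here, *mt-Co2*, *mt-Co3* and *mt-Atp6* of complexes IV and V had almost no unique windows. Reads of *mt-Nd6* of complex I cannot be told apart from reads of the opposite strand. The part of either in the contrast between complexes was not tested.

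**Figure D4:**
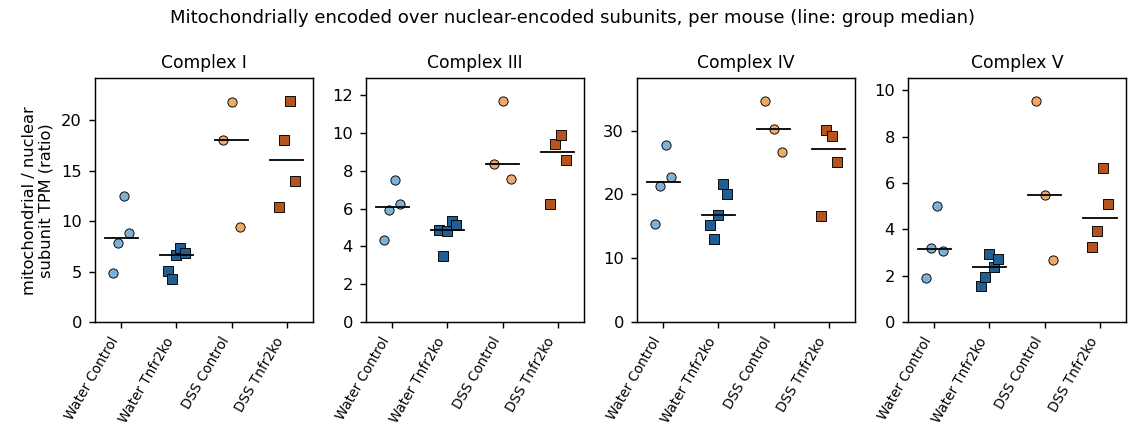
Summed TPM of the mitochondrially encoded members of a complex divided by that of its nuclear-encoded subunits, for each mouse by group; the line is the group median, and each axis starts at 0. The ratios are higher after DSS in each of the 4 complexes, most so in complex I, with overlap between the treatments.

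Nuclear genes that act on mitochondrial RNA had mixed levels. Of the 14 genes for transcription and replication of mitochondrial DNA with at least 1 TPM in both tables, none differed without overlap, and the median log2 difference was 0.37. *Ssbp1*, which binds single-stranded mitochondrial DNA, was at 0.33, *Tfb2m*, a factor of the mitochondrial RNA polymerase, at 0.77 and *Mterf3*, of the mitochondrial transcription termination factor family, at 0.75. Of 17 genes for processing and decay of mitochondrial RNA, 1 was higher without overlap, *Lrpprc*, at 0.88; it was named after its value was seen, and its protein binds mitochondrial mRNAs and keeps them stable. The list's median was 0.43. The 3 most abundant were *Rexo2*, an oligoribonuclease, at -0.36, *Ptcd2*, an RNA-binding protein needed for processing of *mt-Cytb*, at 0.25, and *Tbrg4* at 0.02. Among regulators of mitochondrial biogenesis, none of 6 was without overlap, and *Esrra*, a nuclear receptor, was at -0.65, *Gabpa*, a transcription factor of nuclear respiratory genes, at 0.47 and *Ppargc1b*, a coactivator, at 0.21. The 70 mitochondrial ribosomal protein genes had a median of 0.16, with 1 higher without overlap. Over all genes, in the share without immunoglobulin genes, 3.46% were higher without overlap and the median log2 difference was 0.01. The share that were lower without overlap is not given here. A single gene without overlap in a list is therefore not read as a result about that list.

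Next, mice labelled Tnfr2ko were tested against Control mice of the same treatment. After DSS none of the 10 members was called between Tnfr2ko and Control by limma with Benjamini-Hochberg adjustment over 10899 genes, of which 1 (0.00918%) was called. Log2 fold changes of Tnfr2ko against Control ranged from -0.45 for *mt-Co2* (SE 0.44) to 0.00 for *mt-Nd6* (SE 0.28), and 9 of 10 were below 0, beside a median of 0.02 over all genes. The value of *mt-Co2* was -0.96 without DSS Control 2 and -0.032 without DSS Control 1. Every adjusted p of the members was 1.00 by limma. At an unadjusted p under 0.05, 0 members were found and 2.65% of all genes. No member's TPM separated the genotypes, where 3.68% of all genes did. The numbers of mice leave room for sizeable differences: the SE of a member's log2 fold change was between 0.19 and 0.44.

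In water none of the members was called either, and 1 of 11046 genes (0.00905%) was. Fold changes ranged from -0.39 for *mt-Nd6* (SE 0.33) to 0.05 for *mt-Co2* (SE 0.32), with 9 of 10 below 0 and a median of 0.00 over all genes. By limma the adjusted p ran from 0.865 to 0.983, and no member had an unadjusted p under 0.05 (5.28% of all genes did). No member's TPM separated the genotypes, where 1.55% of all genes did. *mt-Co2* was the lowest member after DSS and the only one above 0 in water, which is a description and was not tested. None of the 71 nuclear subunits was called in either treatment, and their median log2 fold changes were -0.07 after DSS and 0.15 in water.

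**Figure D5:**
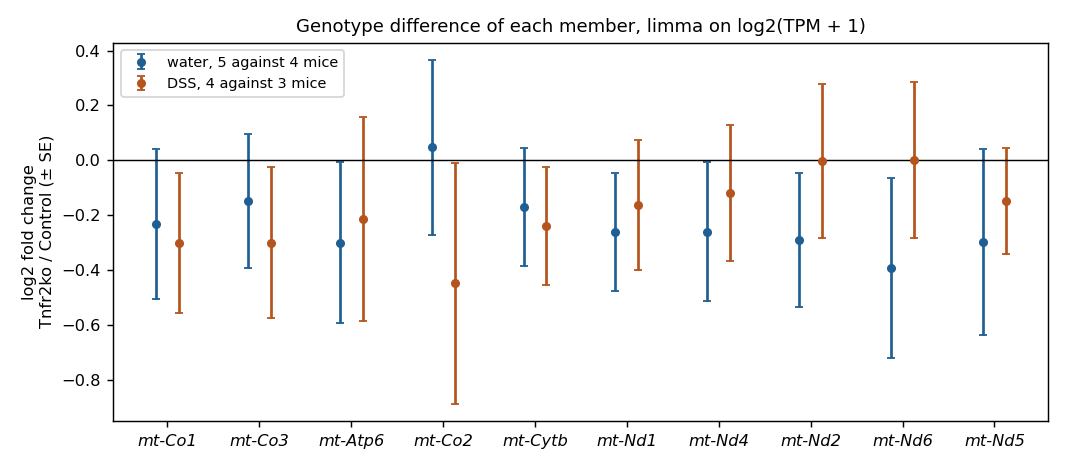
Log2 fold change of Tnfr2ko against Control for each member, with SE from limma on log2(TPM + 1), in water (5 against 4 mice) and after DSS (4 against 3 mice). Most values lie below 0 in both treatments, and none of the members was called.

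The summed share without immunoglobulin genes was 38.1% ± 4.53 (SD, n = 3) in DSS Control and 34.2% ± 5.38 (SD, n = 4) in DSS Tnfr2ko mice, and 25.9% ± 4.97 (SD, n = 4) in Water Control and 22.4% ± 2.64 (SD, n = 5) in Water Tnfr2ko mice. The differences of -3.86 and -3.50 percentage points gave p = 0.429 and p = 0.214 by exact two-sided permutation, where the smallest p possible was 0.0286 and 0.00794. For the share of all listed TPM the differences were -4.09 (exact p = 0.343) and -5.81 (exact p = 0.206). Within cage a the water difference without immunoglobulin genes was -6.87 points and within cage b -0.992; after DSS it was -6.46 in cage c, with 1 mouse of each genotype, and -3.78 in cage d. Without Water Control 1, the lowest of its group, the water difference became -5.22 points with an exact p = 0.0357, and without Water Control 3, the highest, it became -1.25 points. The DSS difference was -6.24 points without DSS Control 3, -1.73 without DSS Control 1 and -1.40 without DSS Tnfr2ko 1.

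The log2 ratio of members to nuclear subunits was lower in Tnfr2ko mice by an amount within the spread of the mice, with a difference of -0.22 after DSS (exact p = 0.486) and of -0.35 in water (exact p = 0.175). In water the difference became -0.53 without Water Control 1, with an exact p = 0.0357, and -0.20 without Water Control 3. After DSS it was -0.42 without DSS Control 3 and -0.041 without DSS Tnfr2ko 1. By complex, the differences in water ran from -0.32 (complex IV) to -0.46 (complex V), with exact p from 0.135 to 0.198, and after DSS from -0.30 (complex IV) to 0.03 (complex I), with exact p from 0.314 to 0.914. The makeup of the member sum gave no call in 20 exact permutation tests (10 members in 2 treatments), where the smallest adjusted p was 0.686 and 0 had an unadjusted p under 0.05.

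Cage and sex, which are the same split in water, were examined in the same way. None of the members was called between cage b (females) and cage a (males) by limma with genotype as a covariate, and 4 of 11046 genes (0.0362%) were. All 10 members had a log2 difference above 0, from 0.02 (*mt-Co1*) to 0.30 (*mt-Co2*), with adjusted p by limma from 0.851 to 0.995. At an unadjusted p under 0.05, 0 members and 6.83% of all genes were found; without Water Control 3 there were 5 members.

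Across the mice of a treatment, the member share without immunoglobulin genes was set against the RNA of other cells in 8 relations. In water, Pearson's r with the immunoglobulin share was -0.69 over 9 mice (exact permutation p = 0.0414, adjusted 0.165; Spearman's rho -0.37, exact p = 0.336). Without the 2 mice farthest from the median, Water Control 3 and Water Tnfr2ko 2, r was 0.21, so this relation rests on them. With the fibroblast and smooth muscle markers r was 0.59 in water (exact p = 0.0907, adjusted 0.242) and rho 0.77 (exact p = 0.0214, adjusted 0.0952). After DSS, r with the epithelial markers was -0.85 over 7 mice (exact p = 0.00714, adjusted 0.0571; rho -0.86, exact p = 0.0238) and -0.88 without the 2 farthest mice. Both are parts of the same total, in which a larger member share leaves less for other genes, and the part of this in r was not tested. No relation passed the adjustment; without DSS Control 3, 1 of 8 did. The 2 mice farthest from the median in that relation, DSS Control 3 and DSS Tnfr2ko 1, are all the mice of cage c, so the r of -0.88 is also the value within cage d, over 5 mice. No r was computed within the other cages, which hold 2 to 5 mice.

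The other mitochondrially encoded genes of the tables, *mt-Nd3*, *mt-Nd4l* and *mt-Atp8*, were also higher after DSS, with log2 differences of 0.87, 0.87 and 0.68 in the share without immunoglobulin genes. *mt-Nd4l*, a small membrane subunit of complex I, did not overlap between treatments, at 1.88% to 2.52% after DSS and 0.872% to 1.47% in water. Only 1.12% of its windows and 1.89% of those of *mt-Nd3* were unique, against 92.5% for *mt-Atp8*. Of 2294 genes that averaged 20 TPM or more in both tables, those whose TPM went most closely with the summed member TPM across mice were *mt-Nd4l* (mean Pearson r of 0.84 over the 7 DSS and the 9 water mice), *Abcb1a* (0.83), *mt-Atp8* (0.83), *Ugdh* (0.81) and *Fbxo25* (0.80). *mt-Nd4l* (9877 to 10173) overlaps the member *mt-Nd4*, which starts at 10167. *mt-Atp8* (7766 to 7969) overlaps the member *mt-Atp6*, which starts at 7927. The r of *mt-Nd4l* and *mt-Atp8* is therefore not that of genes separate from the members. *Abcb1a* encodes a drug efflux pump of the apical membrane and *Ugdh* an enzyme that makes UDP-glucuronic acid. These are descriptions over mice that share the scaling of their table.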

How the data were processed

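Stranded, poly(A)-enriched libraries (single reads of 75 bases by the labels) were quantified by the authors with kallisto and tested with sleuth; the submitters' notes name mm10, and the transcript release is not given in the sources used here. The authors deposited TPM per APPRIS principal transcript in 2 tables, 1 per treatment, scaled separately. A mouse's TPM add up to between 487469 and 861109, since other isoforms are not listed. TPM keep no read depth, and only the spread between mice gives the precision. The deposited p-values, q-values, mean log abundances and log2 ratios are the authors' own comparisons and were not used. Of 29373 lines, 385 repeats were dropped, and TPM were summed per symbol. Replicate numbers are from the labels; nothing pairs same-numbered mice, which were treated as separate animals.

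Genotypes were compared with limma 3.58.1 (R 4.3.3) after log2(TPM + 1), fitting a trend of variance with level, over genes averaging 1 TPM or more, at a Benjamini-Hochberg adjusted p under 0.05; fold changes of low genes are understated on this scale. The code was tested on simulated data. Single values per mouse were compared by exact two-sided permutation. Immunoglobulin genes were 262 symbols of heavy and light chain segments. Alternatives were other pseudocounts and filters, rescaling, a replicate block, cage, and leaving out each mouse. Genes of the lists are named if called, otherwise up to 3 per list with the highest mean TPM; the 5 genes most like the members are named. The member genes were set by symbol, and both they and the lists were chosen with earlier results of these data known.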

Additional observations from a re-analysis of the deposited data

Results flagged for a closer look

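The immunoglobulin share of 2.26% in DSS Tnfr2ko 3 stood apart from the other 3 mice of its group, which had 0.0592% to 0.363% (a gap of 0.862 of the group's range). It bears on the totals that member shares refer to: with these genes left out, the member share of this mouse was 38.6% in place of 37.7%. This was 1 of 75 values of groups with 4 or 5 mice that were looked at, and chance alone flags about 1 in 20. No member's TPM or share stood apart in this way, and the 3 DSS Control mice are too few for it.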

How the results depend on the processing

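No member was called under any alternative of the genotype fits or of the cage fit, by limma. The number of genes called was small throughout: after DSS it was 1, and 0 with a pseudocount of 0.1, with no filter and with the replicate block, and 0 to 3 with a mouse left out (3 without DSS Control 1, 2 without DSS Control 3, and 0 without DSS Control 2 or DSS Tnfr2ko 1, 2 or 3). In water it was 1, and 0 with a pseudocount of 0.1, with a mean of at least 5 TPM and with the replicate block, 4 with no filter, and 1 to 2 with a mouse left out (2 without Water Control 1, Water Control 3 or Water Tnfr2ko 1). The cage fit gave 4, and 3 to 7 with a mouse left out (7 without Water Tnfr2ko 3). Same-numbered mice did not deviate together (correlations over genes of -0.20 to -0.03 after DSS and -0.08 to 0.09 in water), and pairing them gave share differences of -3.94 and -6.46 points (-3.65 and -3.86 without immunoglobulin genes) with no change of call.

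The difference between DSS and water in the summed share was 1.09 on the log2 scale of all listed TPM, 0.67 without immunoglobulin genes, 0.69 after median-of-ratios rescaling and 0.77 as the ratio to nuclear subunits, all above 0; 1.01 to 1.09 with a mouse left out. Of the summed shares and ratios between genotypes, all kept their direction. With a mouse left out, the water difference without immunoglobulin genes ran from -5.22 (without Water Control 1) to -1.25 (without Water Control 3) points and the log2 ratio in water from -0.53 to -0.20; the lowest of each, without Water Control 1, passed the threshold. After DSS these ran from -6.24 (without DSS Control 3) to -1.40 (without DSS Tnfr2ko 1) points and from -0.42 to -0.041. The number of called relations was 0, or 0 to 1 with a mouse left out (1 without DSS Control 3).

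Small fold changes changed sign, none of them called: after DSS *mt-Nd2* (-0.00) was 0.13 with immunoglobulin genes left out and 0.067 with the replicate block, *mt-Nd4* (-0.12) was 0.017 with them left out, and *mt-Nd6* (0.00) was -0.0053 after rescaling and -0.050 with cage as a covariate. With a mouse left out, fold changes ran after DSS from -0.56 to 0.18 for *mt-Atp6*, -0.96 to -0.032 for *mt-Co2*, -0.28 to 0.20 for *mt-Nd2*, -0.31 to 0.022 for *mt-Nd4* and -0.24 to 0.13 for *mt-Nd6*, and in water from -0.10 to 0.25 for *mt-Co2* and -0.22 to 0.0011 for *mt-Co3*. Between cages they ran from -0.0076 to 0.45 for *mt-Atp6*, -0.13 to 0.18 for *mt-Co1*, -0.069 to 0.22 for *mt-Co3*, -0.069 to 0.21 for *mt-Cytb*, -0.021 to 0.28 for *mt-Nd1*, -0.024 to 0.61 for *mt-Nd5* and -0.038 to 0.60 for *mt-Nd6*. The cause of these changes was not tested. Leaving out Water Control 3, the 5 mostly unique genes and all 13 genes were alternatives chosen after seeing the data.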
